A study of Homo sapiens with 9 samples.

Results

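The cells described here are hypoblast-like cells that carried RNA of APOA4, an apolipoprotein of lipid-rich lipoproteins, or of LCN15, a member of the lipocalin family of small secreted proteins. They numbered 1942 of the 22426 cell barcodes in the 2 libraries, and of the 19248 barcodes that passed the limits on depth and on mitochondrial RNA. They were chosen by their own counts of unique molecular identifiers (UMIs), each of which stands for 1 captured RNA molecule. A cell was included when it had at least 3 UMIs of FN1, none of SOX2, at most 5 of POU5F1 and at least 2 of APOA4 and LCN15 together, and when it had at most 1 each of CER1, NPPB and FGFBP3 and at most 1 of GYPE, GYPB and RIPPLY1 together. The levels of these 11 genes are therefore a description of the choice and support nothing. The cells so selected are called APOA4/LCN15 cells below.

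The libraries came from human extra-embryoids (hEEs), spheroids grown from ESI017, an established wild-type human embryonic stem cell line, in which an outer hypoblast-like layer surrounds an inner epiblast-like compartment. There were 2 groups, day 4 (D4) and day 6 (D6) of culture, each with 1 library. The stem cells of both groups had been kept on mitotically inactive mouse fibroblasts in human expanded potential medium, were cleared of the fibroblasts, and aggregated in microwells. They began in spontaneous differentiation medium, with the ROCK inhibitor Y27632 at the start of aggregation, and were later moved to modified in vitro culture 2 medium. The paper states that the aggregates were cultured under reduced oxygen, a condition shared by both groups. Structures with a visible inner and outer compartment were picked for each day and pooled, so the libraries do not sample structures that failed to organize, and the outer layer was slower to come apart during dissociation. With 1 library per day no test between groups was possible, no p-value is given, and day and library cannot be told apart. The 95% intervals given below therefore describe the precision of counting alone.

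The hypoblast is the extra-embryonic sheet that lies under the epiblast, and its descendants line the yolk sac. In the embryo, yolk sac endoderm takes up maternal nutrients, packages lipid into lipoproteins with apolipoproteins, and secretes serum proteins such as alpha-fetoprotein before the liver does. It therefore shares much of its secreted repertoire with hepatocytes and, for lipoprotein export, with the absorptive cells of the gut. Haem oxygenase 1, encoded by HMOX1, opens the haem ring and releases iron, biliverdin and carbon monoxide.

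APOA4 and LCN15 lie on different chromosomes. In RefSeq's annotation of GRCh38.p14, APOA4 spans chr11:116820700-116823304 on the minus strand, in a cluster with APOC3 at chr11:116829907-116833072 and APOA1 at chr11:116835751-116837622. LCN15 spans chr9:136759634-136764518, also on the minus strand, and HMOX1 lies at chr22:35381096-35394207. The 250 bases before the annotated start are printed for the pair that chose the cells. They are chr11:116823305-116823554 for APOA4 and chr9:136764519-136764768 for LCN15. Each is written 5′ to 3′ on the gene's own strand, and capitals mark a match to the HNF4, HNF1, FOXA or GATA letters given below, searched on both strands.
APOA4: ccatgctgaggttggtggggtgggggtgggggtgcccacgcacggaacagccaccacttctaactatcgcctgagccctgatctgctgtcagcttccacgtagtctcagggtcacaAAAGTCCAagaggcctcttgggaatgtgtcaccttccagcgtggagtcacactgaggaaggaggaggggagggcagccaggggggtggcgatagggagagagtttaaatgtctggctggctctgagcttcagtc
LCN15: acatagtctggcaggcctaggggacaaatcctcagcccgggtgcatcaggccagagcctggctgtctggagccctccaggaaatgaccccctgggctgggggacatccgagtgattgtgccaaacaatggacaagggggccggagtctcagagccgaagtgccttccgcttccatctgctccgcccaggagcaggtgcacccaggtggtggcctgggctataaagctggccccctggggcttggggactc
The APOA4 window held the HNF4 letters AAAGTCCA, which begin 134 bases before the start and occur in 0.984% of 34943 windows of this length. The FOXA letters TGTTTAC, in 2.98% of windows, the GATA letters AGATAA, in 9.19%, and the HNF1 half-site letters GTTAAT, in 6.24%, were in neither window. LCN15 matched none of these, which says only that these letters were not in that window. The GC content was 59.2% for APOA4 and 63.6% for LCN15, against a median of 58% over all windows. The motif matches describe letters only, and no binding was measured.

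The share of APOA4/LCN15 cells differed between the libraries. At D4, 330 of 9151 kept cells met the rule, or 3.61% (exact binomial interval 3.23 to 4.01). At D6, 1612 of 10097 did, or 15.97% (15.3 to 16.7). The gate on FN1, SOX2 and POU5F1 alone held 4061 cells at D4 and 3567 at D6, so that APOA4/LCN15 cells made up 8.13% (7.30 to 9.01) of the gate at D4 and 45.2% (43.6 to 46.8) at D6. With at least 1 UMI of the pair in place of 2 the shares of kept cells were 9.11% and 21.6%, with at least 4 they were 1.202% and 9.94%, and from thinned counts 0.754% and 5.87%. At D4, 375 gate cells had at least 2 UMIs of APOA4 and LCN15, of which CER1 removed 15, NPPB 23, FGFBP3 6 and the last 3 genes together 1. At D6, 1905 had at least 2, and NPPB, a natriuretic peptide gene, removed 257 of them.

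**Figure D1:**
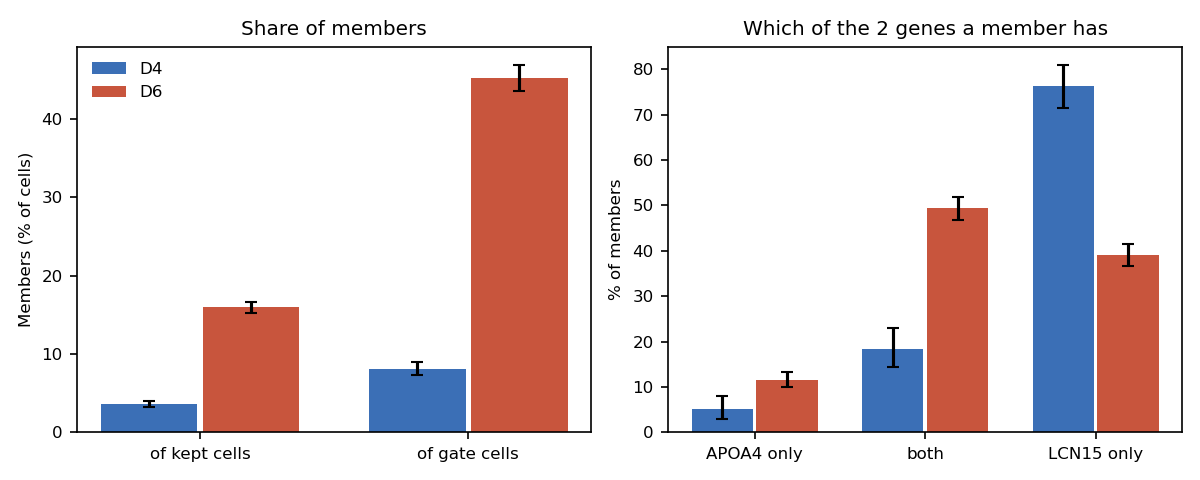
Share of APOA4/LCN15 cells (members) in percent of kept cells and of cells in the FN1, SOX2 and POU5F1 gate (left), and share of members with UMIs of APOA4 only, of both genes or of LCN15 only (right), at D4 and D6. Bars are shares and whiskers exact 95% binomial intervals for 1 library per day; LCN15-only cells were 76.4% of members at D4, and cells with both genes were 49.3% at D6.

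Most cells sat close to the threshold at D4 and farther from it at D6. The median cell had 2.5 UMIs of APOA4 and LCN15 together at D4 and 5 at D6, and the highest had 42 and 66. Exactly 2 UMIs, the least the rule allows, were counted in 165 of 330 cells at D4 and in 352 of 1612 at D6, while 504 and 567 gate cells that passed the other limits had exactly 1 and stayed outside. At least 10 UMIs were counted in 14 cells of D4 (4.24%) and in 352 of D6 (21.8%). At D4, 252 of the 330 cells had LCN15 UMIs only, 61 had both genes and 17 had APOA4 only. At D6 the numbers were 631, 795 and 186. Among all gate cells, an APOA4 UMI was found in 8.83% of those with an LCN15 UMI and in 4.61% of those without at D4, and in 45.5% and 32.4% at D6. The part of cell depth in this excess was not tested.

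Free RNA in the droplets can give UMIs in cells that do not express a gene. Epiblast-like cells, taken as kept cells with a SOX2 UMI, more than 5 UMIs of POU5F1 and none of FN1, should lack both genes. This definition leaves out cells that caught a free FN1 UMI, so their shares can lie below the true background. Epiblast-like cells numbered 2743 at D4 with a median of 14773 UMIs and 3723 at D6 with 13972, against 11012 and 10902 in the gate. An APOA4 UMI was found in 0.0365% of them at D4 and in 1.29% at D6, compared with 5.47% and 40.1% of gate cells. For LCN15 the shares were 1.203% and 2.98%, compared with 20.4% and 59.1% of gate cells. Of epiblast-like cells, 1 at D4 and 3 at D6 had at least 2 UMIs of the pair. With all cells thinned to the same depth, the share with LCN15 was 9.21% in the gate and 0.219% in epiblast-like cells at D4, and 36.5% and 0.886% at D6. Outside the gate as a whole, 47 of 5090 kept cells at D4 and 412 of 6530 at D6 had at least 2 UMIs of the pair.

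Depth was close to that of the comparison cells at D6 and somewhat greater at D4. The libraries summed to 151712246 UMIs at D4 and 150320228 at D6, and APOA4/LCN15 cells held 4189701 and 18383113 of them. The median APOA4/LCN15 cell had 11881.5 UMIs at D4 and 10643 at D6. The comparison cells, gate cells with no UMI of either gene, had medians of 10858 and 10878, and numbered 3085 at D4 and 987 at D6. The median mitochondrial share was 3.42% against 3.84% in comparison cells at D4, and 1.84% against 2.52% at D6. Doublet calls fell on 1 of 330 and 8 of 1612 APOA4/LCN15 cells. The libraries shared 40 cell barcodes, none of them in an APOA4/LCN15 cell of both days.

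Marker genes outside the rule are given beside epiblast-like cells to describe the name hypoblast-like. The 2 classes were chosen by opposite limits on FN1, SOX2 and POU5F1. Contrasts between them therefore follow in part from that choice and do not test the name. Of 15 hypoblast identity genes outside the rule, 14 at D4 and 15 at D6 passed a filter, a mean of at least 10 CPM over the APOA4/LCN15 and comparison cells. Both of these classes come from the same gate, so these counts do not test the name either. A level in CPM is the sum of a gene's UMIs over all cells of a class, scaled to 1e6 UMIs of that class. FOXA2, SOX17, GATA4, GATA6 and HNF4A encode transcription factors of extra-embryonic and definitive endoderm, so they do not tell these tissues apart. Of 14 definitive endoderm genes outside the rule, 13 also passed the filter on each day. FOXA2 stood at 131 CPM in the APOA4/LCN15 cells of D4 and at 142 CPM at D6, against 2.47 and 0.794 CPM in epiblast-like cells. SOX17 stood at 106 CPM on both days, against 11.0 and 13.9 CPM in epiblast-like cells. GATA6 was at 104 and 294 CPM, and HNF4A at 22.0 and 51.0 CPM. The 4 marker genes given for these cells were APOA4, LCN15, APOA1 and HMOX1. APOA1, the main protein of high-density lipoprotein, was detected in 327 of 330 cells at D4 and in 1610 of 1612 at D6, and HMOX1 in 160 and in 1387. With all cells thinned to the same depth, APOA1 was detected in 92.1% and 99.75% of them, and in 4.78% and 20.4% of epiblast-like cells. For HMOX1 these shares were 22.1% and 61.2%, and 4.23% and 5.80% in epiblast-like cells. APOA1 and HMOX1 UMIs were also common in comparison cells, at 95.7% and 34.4% of cells at D4 and 98.7% and 75.4% at D6. Neither marker was particular to the selected cells.

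Each day's APOA4/LCN15 cells were set beside the comparison cells of the same library. This is the contrast by which the rule chose the cells, so its ratios are a description and nothing is read from their counts. At D6, 16 of 8556 genes that passed the filter were at least 2-fold higher in APOA4/LCN15 cells, or 0.187%, and 19 were at least 2-fold lower, or 0.222%. At D4, 11 of 8507 were higher, or 0.129%, and 26 lower, or 0.306%. The filter is on the mean of both classes, so a gene below 10 CPM in one of them passed only through the class in which it was high. That held for 8 of the 16 and 12 of the 19 at D6 and for 4 of the 11 and 12 of the 26 at D4, and their ratios follow in part from the filter. The counting interval of the ratio lay above 0 for 10.5% of all genes at D4 and 10.8% at D6, and below 0 for 9.24% and 17.9%. The median log2 ratio over all genes was 0.00 at D4 and -0.04 at D6. The comparison cells were not subject to the limits on CER1, NPPB, FGFBP3 and the last 3 genes. With these limits applied to them too, 2269 comparison cells remained at D4 and 781 at D6, and the counts became 6 higher and 8 lower of 8494 at D4, and 14 higher and 3 lower of 8551 at D6. With cells thinned the D4 counts were 32 higher and 66 lower, and with at least 4 UMIs of the pair 32 and 63.

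Several apolipoproteins were higher at D6. APOA1 stood at 14450 CPM (14395 to 14505) in APOA4/LCN15 cells of D6 and at 7520 CPM in comparison cells, a log2 ratio of 0.94 (0.93 to 0.95). At D4 it stood at 2242 and 1458 CPM, a log2 ratio of 0.62 (0.59 to 0.65). The median cell had 135 APOA1 UMIs at D6 and 62 in comparison cells, with quartiles of 72 and 223 and of 28 and 120, so that the 2 classes overlapped broadly. APOA2, the second protein of high-density lipoprotein, was at 1398 and 778 CPM at D6 (0.85) and at 625 and 387 CPM at D4 (0.69). APOB, the scaffold of chylomicrons and low-density lipoprotein, was at 101 and 51.2 CPM at D6 (0.98) and at 161 and 94.9 CPM at D4 (0.76). APOB was the 1 apolipoprotein of those with enough counts whose level was lower at D6 than at D4. APOC1 and APOE, exchangeable apolipoproteins found on most lipoproteins, differed less, with log2 ratios of 0.30 and 0.28 at D6 and 0.13 and 0.14 at D4.

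Other apolipoproteins were less abundant. APOC3, an inhibitor of triglyceride clearance encoded beside APOA4 and APOA1, was at 31.9 CPM (29.4 to 34.6) against 5.97 CPM (4.65 to 7.56) at D6, a log2 ratio of 2.42 (2.06 to 2.80). A single D6 cell held 81 of its 587 UMIs, and without the 5 highest cells its level was 24.3 CPM. At D4 it was counted 5 times in APOA4/LCN15 cells. APOM, a carrier of sphingosine-1-phosphate, was at 45.4 against 14.5 CPM at D6 (1.65). MTTP, which loads lipid onto APOB, was at 18.3 against 4.67 CPM at D6 (1.97) and at 4.30 against 0.928 CPM at D4 (2.21, with 18 UMIs, an interval of 1.29 to 3.08 and a mean below the filter). Of 11 apolipoprotein genes outside the rule, 7 passed the filter at D6, all 7 had ratios above 0 and 2, APOC3 and APOM, were at least 2-fold higher, with a median log2 ratio of 0.94. APOC3 and MTTP passed only through the APOA4/LCN15 cells. At D4, 5 passed and all were above 0, with a median of 0.62 and none at least 2-fold higher. APOA5, APOC2 and APOH had no UMI in the 330 cells of D4. The apolipoprotein genes outside the rule summed to 28018.5 CPM in APOA4/LCN15 cells and 18218.6 CPM in comparison cells at D6, and to 10412.9 and 8661.4 CPM at D4.

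**Figure D2:**
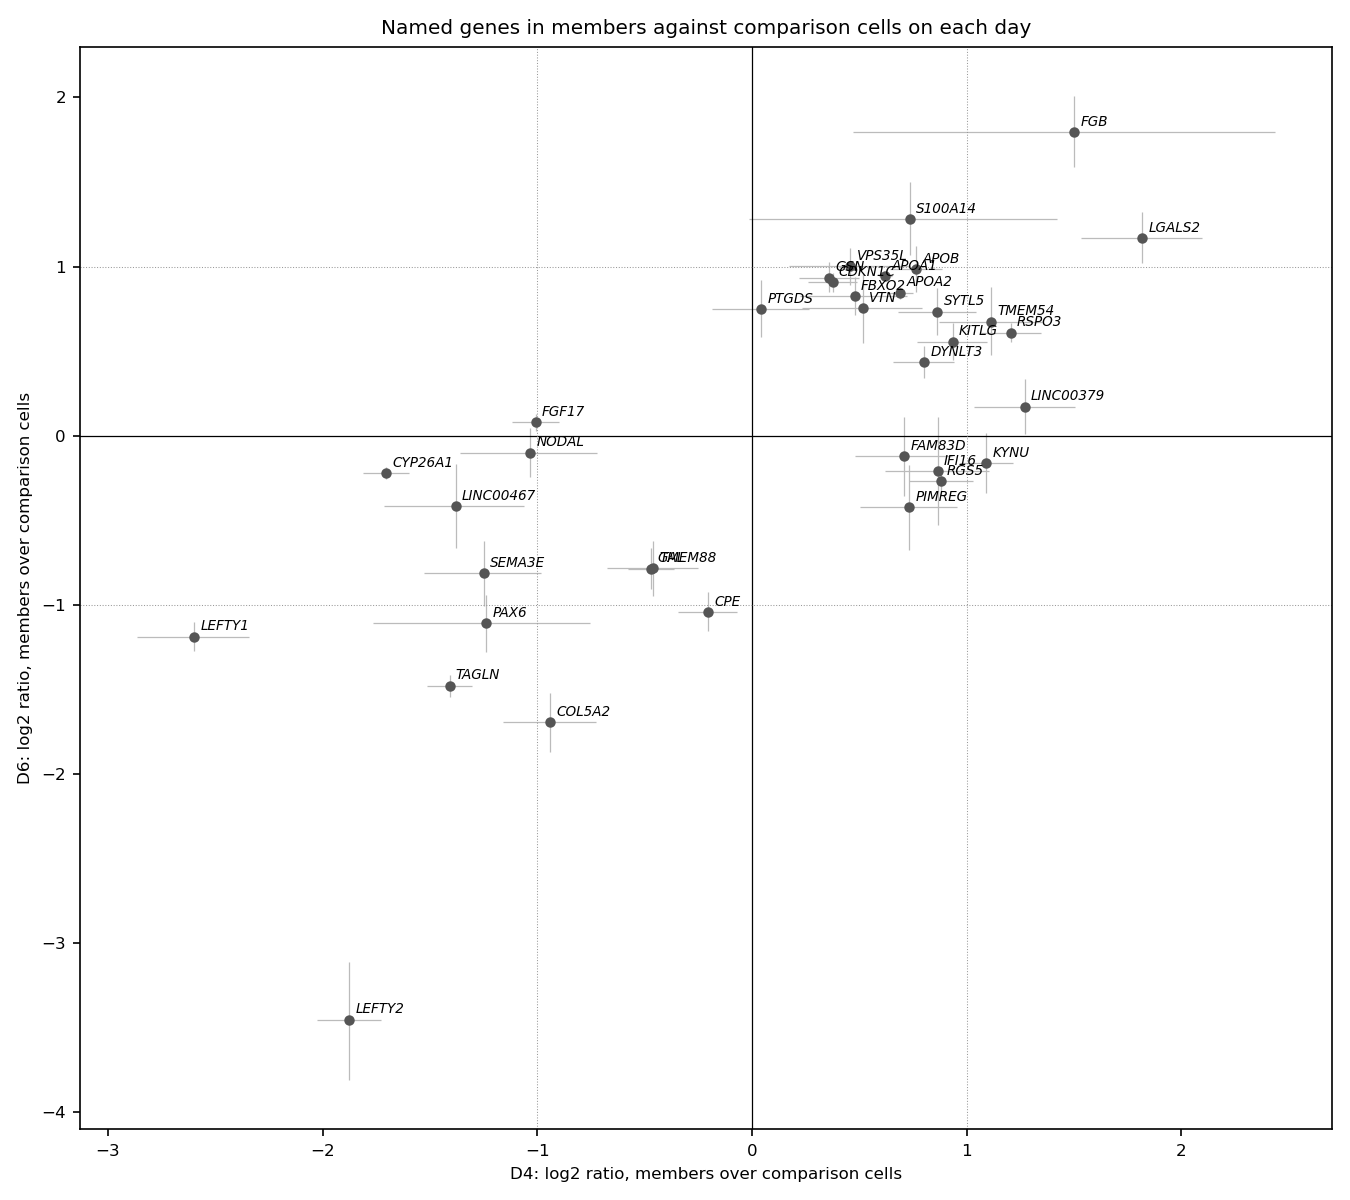
log2 ratio of APOA4/LCN15 cells (members) over comparison cells at D4 (horizontal axis) and D6 (vertical axis) for the genes named by size on either day, with 95% counting intervals and dotted lines at a 2-fold difference. LGALS2 lies high on both days, LEFTY1, LEFTY2 and TAGLN low on both, and RGS5 and PIMREG above 0 at D4 and below 0 at D6.

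Liver-type secreted proteins were partly present. FGB, the fibrinogen beta chain, was at 67.9 CPM (64.2 to 71.8) in APOA4/LCN15 cells of D6 and at 19.6 CPM (17.1 to 22.3) in comparison cells, a log2 ratio of 1.80 (1.59 to 2.01), and at 3.10 and 1.10 CPM at D4. The D4 level rests on 13 UMIs in 10 of 330 cells, and without the 5 highest cells of each class the levels were 1.21 and 0.789 CPM. FGA, the fibrinogen alpha chain, was at 17.6 and 10.5 CPM at D6 (0.75) and at 11.7 and 4.90 CPM at D4 (1.26), where its mean was below the filter. F10 and F2, which encode coagulation factor X and prothrombin, had log2 ratios of 0.55 and 1.26 at D6. AMBP, the precursor of alpha-1-microglobulin and bikunin, was at 22.0 and 11.4 CPM at D6 (0.94) and at 14.8 and 7.03 CPM at D4 (1.07). Of 28 such genes, 8 passed the filter at D6, of which 7 had ratios above 0 and 2 were at least 2-fold higher, with a median log2 ratio of 0.75. At D4, 4 passed, all above 0 and 1, AMBP, at least 2-fold higher, with a median of 0.53. Under the same limits the D4 ratio of AMBP was 0.89, below 2-fold. F2 at D6 and AMBP at D4 passed only through the APOA4/LCN15 cells. Another 10 of the 28 at D4 and 8 at D6 had no UMI in APOA4/LCN15 cells. SERPINA1, which encodes alpha-1-antitrypsin, had none on either day, and ALB, which encodes serum albumin, had 0 UMIs at D4 and 6 at D6. Of 15 genes of adult hepatocyte function, 7 at D4 and 5 at D6 had no UMI, among them CYP3A4, CYP2E1, TAT and CYP8B1 on both days, and 1 and 3 passed the filter, with medians of -0.14 and 0.31. The most abundant of that list was CPS1 at D4 and HP, which encodes haptoglobin, at D6.

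Of 5 genes of yolk sac endoderm, AFP was carried by few cells. The study reports that expression of these genes emerged by D6 in the same samples, so the list is not independent evidence. AFP had 317 UMIs at D6, at 17.2 CPM (15.4 to 19.2) against 0.952 CPM (0.475 to 1.70) in comparison cells, a mean below the filter, but they lay in 47 of 1612 cells. The 5 highest cells held 58.0% of them and 1 cell held 51 UMIs, and without those 5 cells the level was 7.26 CPM. At D4 AFP had 4 UMIs in APOA4/LCN15 cells and stood at 4.35 CPM in epiblast-like cells. TTR, the thyroxine carrier transthyretin, was at 8.59 (6.02 to 11.9) against 2.39 CPM (1.91 to 2.96) at D4, a log2 ratio of 1.84 (1.24 to 2.42), with a mean below the filter. At D4, 5 APOA4/LCN15 cells held 44.4% of their 36 TTR UMIs, and without the 5 highest cells of each class the levels were 4.86 against 2.06 CPM. It was at 15.99 against 14.2 CPM at D6 (0.17, interval -0.11 to 0.46). At D6, 5 comparison cells held 67.1% of their 164 TTR UMIs, 1 of them 58, and without the 5 highest cells of each class the levels were 11.3 against 4.70 CPM. VTN, the adhesion protein vitronectin, was at 30.1 against 21.0 CPM at D4 (0.52) and at 38.7 against 22.9 CPM at D6 (0.75). GJB1, a gap junction connexin, was at 10.9 against 5.54 CPM at D6 (0.98), also below the filter, and its D4 interval held 0. APOA2, given above, is the last of the 5. In cells thinned to the same depth, GJB1 was detected in 3.60% of APOA4/LCN15 cells and 1.01% of comparison cells at D6, and AFP in 1.55% and 0.203%, against 0.0537% and 0.564% of epiblast-like cells.

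Genes of the uptake side and of lipid handling differed less. Cubilin and amnionless form a receptor complex through which visceral endoderm takes up lipoproteins and vitamin-binding proteins. CUBN was at 15.5 against 5.45 CPM at D6 (1.51, interval 1.11 to 1.93), AMN at 20.1 against 11.6 CPM (0.79), and LRP2, which encodes their partner megalin, at 22.2 against 15.7 CPM (0.50). Of 22 genes of visceral endoderm uptake, 20 passed the filter at D6 and 15 had ratios above 0, with a median of 0.09, and the 1 gene at least 2-fold higher, CUBN, passed only through the APOA4/LCN15 cells. At D4, 17 passed, 10 above 0, with a median of 0.04. Lipoprotein assembly and receptors had medians of 0.19 over 9 genes at D4 and 0.09 over 11 at D6, where MTTP, admitted in the same way, was the 1 gene at least 2-fold higher. All 21 cholesterol synthesis genes passed on both days, with medians of 0.09 and 0.07. Fatty acid synthesis had medians of 0.05 on each day over 8 genes, and lipid oxidation and storage 0.05 over 12 and -0.01 over 11. None of the genes in these last 3 lists was at least 2-fold higher or lower. Retinoid and lipocalin genes outside the rule had medians of 0.01 over 6 at D4 and 0.19 over 8 at D6, which became -0.13 and 0.01 with the other limits on the comparison cells.

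HMOX1 was at 76.1 CPM (68.0 to 85.0) in APOA4/LCN15 cells and 55.8 CPM (53.4 to 58.3) in comparison cells at D4, a log2 ratio of 0.45 (0.27 to 0.62), and at 420 and 253 CPM at D6, a ratio of 0.73 (0.67 to 0.79). At D4 the 252 cells with LCN15 only were at 54.7 CPM (46.7 to 63.6), close to the comparison cells, and the 61 with both genes and 17 with APOA4 only at 138 and 118 CPM. The median D6 cell had 3 HMOX1 UMIs against 2. Epiblast-like cells had 13.0 and 17.0 CPM. Of 25 genes of haem, iron and NRF2 response, 21 passed at D4 and 22 at D6, of which 8 and 9 had ratios above 0 and 13 on each day below 0. The interval lay above 0 for 3 and 5 of them and below 0 for 3 and 6. The median was -0.03 on both days and no gene reached 2-fold. FTH1, the ferritin heavy chain and the most abundant of the list, had log2 ratios of 0.06 and 0.08.

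Among transcription factors of endoderm, 12 of 24 passed on each day and none was 2-fold different, with medians of -0.04 at D4 and 0.04 at D6. With the other limits on the comparison cells the medians were 0.02 and -0.02. HNF4A, a regulator of apolipoprotein genes in liver and visceral endoderm, was at 51.0 against 37.0 CPM at D6 (0.46, interval 0.30 to 0.63) and at 22.0 against 21.0 CPM at D4 (0.07, interval -0.26 to 0.38). GATA4 and FOXA2 had intervals that held 0 on both days. Over the hypoblast identity genes that passed, which include APOA1 and APOA2, medians were 0.12 over 14 genes at D4 and 0.18 over 15 at D6, and none of them was 2-fold different. Basement membrane genes had medians of 0.10 and 0.13 over 16 genes on each day.

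Other genes named by size at D6 had varied roles. LGALS2, which encodes a galectin, was at 87.6 (83.4 to 92.0) against 38.9 CPM (35.4 to 42.7) at D6, a log2 ratio of 1.17, and at 35.6 (30.1 to 41.7) against 10.1 CPM (9.08 to 11.2) at D4, a ratio of 1.82. It was at least 2-fold higher on both days, but with the other limits on the comparison cells its D6 ratio was 0.92, below 2-fold. S100A14, a calcium-binding protein gene, was at 46.7 against 19.2 CPM at D6 (1.28), with a D4 interval that held 0. VPS35L, part of an endosomal recycling complex, was at 157 against 78.3 CPM (1.00, and 0.86 under the same limits). CDKN1C, the imprinted cell cycle inhibitor p57, was at 555 against 296 CPM (0.91), and GSN, the actin-severing protein gelsolin, at 228 against 119 CPM (0.94). FBXO2 was at 134 against 75.7 CPM (0.83) and PTGDS, a prostaglandin synthase of the lipocalin family, at 58.8 against 35.0 CPM (0.75). BMP6, a bone morphogenetic protein ligand named here after its values were seen, was at 37.3 against 18.0 CPM at D6 (1.05) and at 12.4 against 6.61 CPM at D4 (0.91, below the filter). BMP4, named here in the same way, went the other way at D6, at 10.6 against 23.2 CPM (-1.13, and -0.94 under the same limits). Of the 12 genes named as higher at D6, 10 had D4 intervals above 0, beside 10.5% of all genes, and the other 2 had intervals that held 0. Genes named by size had a mean of at least 30 CPM and all genes one of at least 10. Here and below, the shares over all genes are therefore not a like-for-like background.

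At D4 the named genes were led by another set. RSPO3, which encodes a secreted amplifier of WNT signalling, was at 129 (118 to 140) against 55.8 CPM (53.4 to 58.3), a log2 ratio of 1.21, and at 492 against 323 CPM at D6 (0.61). KYNU, the kynureninase of tryptophan breakdown, was at 161 (149 to 174) against 75.7 CPM (72.8 to 78.6) at D4, a ratio of 1.09, and at 34.7 against 38.9 CPM at D6 (-0.16, interval -0.34 to 0.01). LINC00379, a long non-coding RNA, was at 46.5 against 19.3 CPM at D4 (1.27) and at 48.7 against 43.3 CPM at D6 (0.17). The D6 ratio turned to -0.11 with cells thinned and to -0.085 under the same limits. TMEM54 had ratios of 1.11 and 0.67, KITLG, the ligand of the KIT receptor, 0.93 and 0.56, SYTL5 0.86 and 0.73, and DYNLT3 0.80 and 0.43. RGS5, a regulator of G protein signalling, was at 107 against 58.4 CPM at D4 (0.88) and at 156 against 188 CPM at D6 (-0.27). Of the 12 genes named as higher at D4, 7 had D6 intervals above 0, 2 below 0 and 3 that held 0, beside 10.8% above and 17.9% below 0 over all genes. Under the same limits the D4 ratios of KYNU, LINC00379 and TMEM54 were 0.87, 0.92 and 0.93, below 2-fold. GDF15, a stress-linked growth factor named here after its values were seen, was at 22.2 against 7.96 CPM at D4 (1.48). It passed the filter only through the APOA4/LCN15 cells.

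Genes of the anterior visceral endoderm (AVE), which secretes antagonists of NODAL and WNT, were lower in APOA4/LCN15 cells. LEFTY1, a NODAL antagonist, was at 30.1 CPM (25.1 to 35.8) in APOA4/LCN15 cells of D4 and at 182 CPM (178 to 187) in comparison cells, a log2 ratio of -2.60, and at 102 against 232 CPM at D6 (-1.19). LEFTY2 was at 92.4 against 339 CPM at D4 (-1.88) and at 4.35 against 47.6 CPM at D6 (-3.45). These differences rested in part on cells that the rule kept out. In comparison cells under the same limits, the LEFTY1 level was 43.8 CPM at D4 and 169 CPM at D6, and its log2 ratios became -0.54 and -0.73. The LEFTY2 level was 126 CPM at D4 and 14.7 CPM at D6, and its ratios became -0.45 and -1.76. At D6 LEFTY2 then no longer passed the filter. All 9 AVE genes that passed had ratios below 0 on each day, with medians of -0.87 and -0.68. GSC at D4 and LEFTY2 and SHISA2 at D6 passed only through the comparison cells, so the filter fixed their sign. Under the same limits 8 passed on each day, all below 0, with medians of -0.34 and -0.37. NODAL itself had a D4 ratio of -1.03, which became -0.04 under the same limits.

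CYP26A1 kept more of its difference. This gene for a retinoic acid-degrading enzyme was at 180 (168 to 194) against 588 CPM (580 to 596) at D4, a log2 ratio of -1.70, and at -1.16 with 402 CPM in comparison cells under the same limits. At D6 it was at 806 against 938 CPM (-0.22). SEMA3E, a guidance cue, was at 28.6 against 68.1 CPM at D4 (-1.25) and at 23.5 against 41.2 CPM at D6 (-0.81), and LINC00467 at 19.8 against 51.6 CPM at D4 (-1.38). FGF17 had ratios of -1.01 at D4 and 0.08 at D6. COL5A2, a fibrillar collagen chain, was at 21.3 (19.3 to 23.5) against 69.0 CPM (64.3 to 73.9) at D6, a ratio of -1.69 that became -0.78 under the same limits. TAGLN, the actin-binding protein transgelin, was at 163 against 454 CPM at D6 (-1.48) and at 190 against 504 CPM at D4 (-1.41). With 192 and 281 CPM in comparison cells under the same limits, its ratios were -0.24 and -0.56. PAX6 and CPE had D6 ratios of -1.11 and -1.04, and GAL and TMEM88 of -0.79 and -0.78. Under the same limits the D6 ratios of PAX6 and CPE were -0.84 and -0.85, and the D4 ratios of SEMA3E and FGF17 -0.92 and -0.36, none of them 2-fold, while LINC00467 had -1.26. All 8 genes named as lower at D6 had D4 intervals below 0, beside 9.24% of all genes. Of the 8 named as lower at D4, 6 had D6 intervals below 0, 1 above 0 and 1 that held 0, beside 17.9% below and 10.8% above 0 over all genes.

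Some of the lowest ratios came from small groups of comparison cells. S100A6, HAPLN1 and ACTC1 were singled out here after their values were seen. S100A6 had 5 UMIs in the 330 APOA4/LCN15 cells of D4, against 1679 UMIs in 93 of 3085 comparison cells, of which 5 cells held 26.6%. HAPLN1 was at 1.85 against 43.8 CPM at D6, with 39 of 987 comparison cells holding all 506 UMIs of their class and 5 of the 1612 APOA4/LCN15 cells holding 34. HAND1, a transcription factor of mesoderm and amnion, was at 1.96 against 29.0 CPM at D6, with UMIs in 43 of 987 comparison cells, and ACTC1, the cardiac actin gene, at 4.62 against 33.8 CPM, with UMIs in 57. For ACTC1, 5 comparison cells held 60.6% of the UMIs of their class at D6. Without the 5 highest comparison cells, HAPLN1, HAND1 and ACTC1 were at 26.96, 18.4 and 13.45 CPM in that class. S100A6 at D4 and the other 3 genes at D6 passed the filter only through the comparison cells. Under the same limits HAND1 was at 16.2 CPM in comparison cells, a log2 ratio of -3.05, and no longer passed the filter. HAPLN1 and ACTC1 were then at 19.9 and 24.3 CPM, with ratios of -3.43 and -2.39.

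Markers of other cell types were measured list by list. Of 20 trophoblast genes, 17 at D4 and 12 at D6 had no UMI in APOA4/LCN15 cells, and GATA3, which many cell types express, was the 1 that passed the filter, with log2 ratios of 0.23 on both days. The trophoblast list summed to 255 against 221 CPM at D4 and 249 against 209 CPM at D6. None of 14 endothelial and blood genes passed, and HBG1, HBZ, PTPRC, TAL1 and GATA1 had no UMI on either day. Their summed level was 10.7 against 8.97 CPM at D4 and 10.4 against 15.1 CPM at D6. Of 16 mesoderm genes outside the rule, 5 passed at D4 and 6 at D6, with medians of -0.64 and -0.34, which were -0.19 and -0.16 under the same limits. VIM, the intermediate filament vimentin and the most abundant of them, was at 509 against 808 CPM at D4 and 522 against 809 CPM at D6, and COL3A1 had no UMI on either day. Of 18 enterocyte genes, 8 at D4 and 5 at D6 had no UMI, among them FABP2, SI and CDH17 at D6, and 2 and 3 passed, all above 0. They included DPP4, a cell-surface peptidase, at 22.2 against 9.37 CPM at D4 and 77.6 against 55.9 CPM at D6. At D4 DPP4 passed only through the APOA4/LCN15 cells. The enterocyte list also holds MTTP, which passed at D6 in the same way. Of 10 epiblast genes outside the rule, 7 and 8 passed, with medians of -0.23 and -0.02, and of 11 amnion genes 3 passed on each day, with medians of -0.03 and 0.03. Under the same limits the epiblast medians were -0.10 and -0.03 and the amnion medians -0.01 and 0.10. The epiblast list summed to 1757 and 2504 CPM in APOA4/LCN15 cells, with EPCAM its most abundant gene, and the amnion list to 2998 and 3549 CPM, with KRT18, an epithelial keratin gene, its most abundant. ISL1, an amnion and mesoderm factor, was at 29.1 against 25.2 CPM at D4 and at 6.47 against 7.70 CPM at D6, with intervals of the ratio that held 0. Definitive endoderm genes had medians of -0.30 and -0.18 over 13 genes on each day. Under the same limits these were -0.17 over 12 genes at D4 and -0.16 over 13 at D6. The part of any of these cell types in the differences above was not tested.

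**Figure D3:**
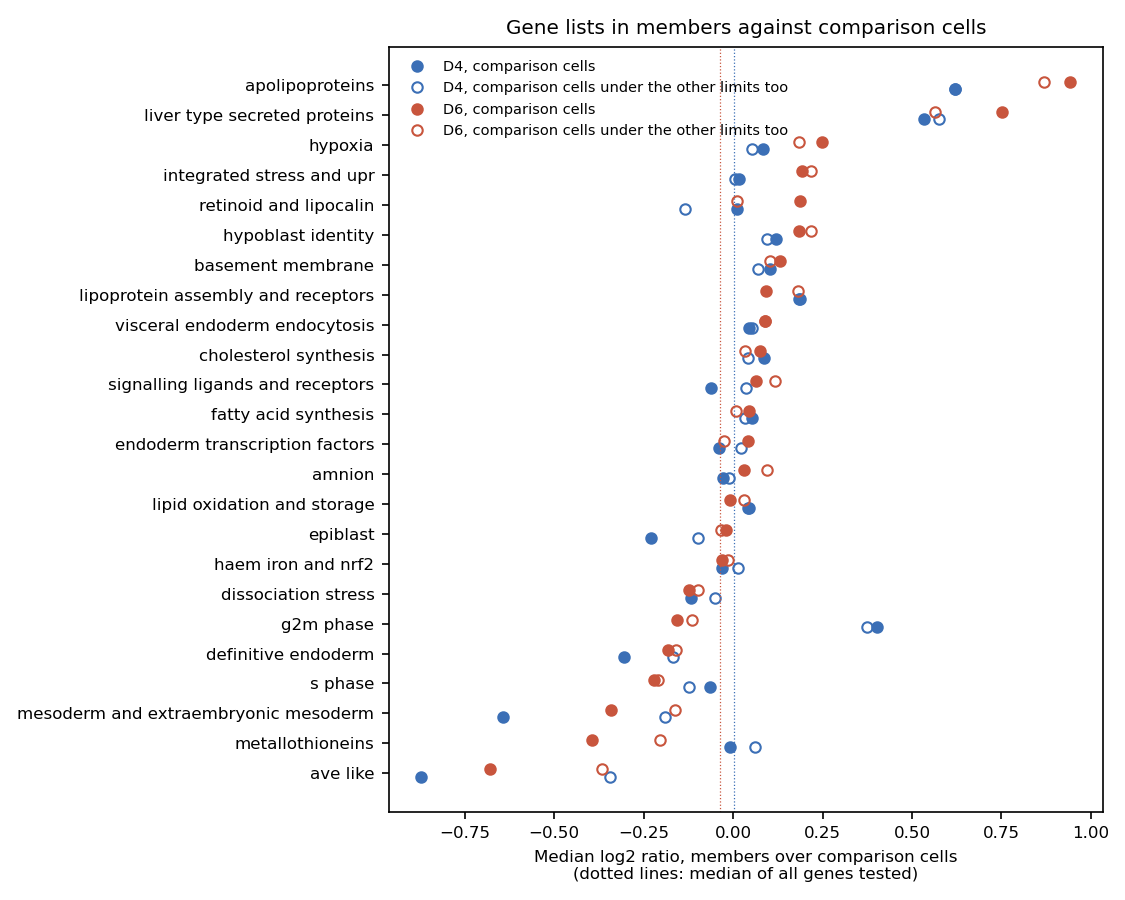
Median log2 ratio of APOA4/LCN15 cells (members) over comparison cells for gene lists with at least 3 genes that passed on each day; filled points use all comparison cells, open points those under the other limits too, and dotted lines mark the median of all genes. Apolipoproteins (0.62 and 0.94) and liver-type secreted proteins (0.53 and 0.75) lie farthest above 0 of the lists drawn, AVE genes (-0.87 and -0.68) farthest below, and G2M genes on opposite sides on the 2 days.

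G2M genes lay on opposite sides of the comparison cells on the 2 days. Of 53 G2M genes that passed, 52 had ratios above 0 at D4, with a median of 0.40, and 49 had ratios below 0 at D6, with a median of -0.16. TOP2A, the topoisomerase that untangles mitotic chromosomes, was at 407 (388 to 427) against 255 CPM (250 to 260) at D4 and at 176 (170 to 182) against 188 CPM (180 to 196) at D6. MKI67, the proliferation marker Ki-67, was at 218 against 154 CPM at D4 and at 98.8 against 123 CPM at D6. S-phase genes had a median of -0.07 over 41 genes at D4, and of -0.22 over 37 at D6, where 35 were below 0. The D4 APOA4/LCN15 cells were also deeper than their comparison cells. With comparison cells weighted to the same depths, 52 of 53 G2M genes were still above 0 at D4, with a median of 0.30, and with all cells thinned 50 were, with a median of 0.39. No G2M or S-phase gene was 2-fold different on either day.

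Stress lists were compared in the same way. Hypoxia genes had medians of 0.08 over 13 genes at D4 and 0.25 over 14 at D6, where 11 were above 0. SLC2A1, the glucose transporter GLUT1, was at 223 against 141 CPM at D6 (0.66) and P4HA1, a collagen prolyl hydroxylase subunit, at 376 against 248 CPM (0.60). Genes of the integrated stress and unfolded protein responses had medians of 0.02 and 0.19, dissociation stress genes of -0.12 on both days over 13 genes, and metallothioneins of -0.01 over 3 at D4 and -0.39 over 4 at D6, of which all 4 were below 0. Genes for signalling ligands and receptors had medians of -0.06 and 0.07, which became 0.04 and 0.12 with the other limits on the comparison cells. The part of dissociation in these ratios was not tested.

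Levels differed along the count of APOA4 and LCN15. Gate cells that passed the other limits were divided by 0, 1, 2 to 3 and 4 or more UMIs of the pair, with 2269, 504, 220 and 110 cells at D4 and 781, 567, 608 and 1004 at D6. APOA1 at D6 was at 7918, 10471, 11773 and 16023 CPM along these steps, and at D4 at 1458, 1805, 2292 and 2143 CPM. In their APOA1 level, the cells with 1 UMI, just outside the threshold, thus lay between those with none and those with 2 to 3 on both days. This did not hold for every gene below. HMOX1 at D6 was at 267, 335, 377 and 445 CPM, and at D4 at 56.0, 62.8, 84.7 and 59.2 CPM. APOB at D4 was at 104, 141, 144 and 195 CPM. KYNU went from 88.0 to 110, 143 and 197 CPM at D4 but from 45.2 to 47.2, 39.5 and 31.9 CPM at D6. LEFTY1 at D6 was at 169, 182, 128 and 86.9 CPM. At D6, 10 of the 12 genes named as higher had a higher level at every step, and at D4 9 of 12, while 6.04% and 6.96% of all genes did. These genes were chosen on the same cells, so the counts are a description. The median depth was 10525, 11097, 11782 and 12107.5 UMIs along the steps at D4 and 10542, 10647, 10565 and 10663 at D6, so that deeper cells had more UMIs of the pair at D4 and depth was nearly level at D6.

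**Figure D4:**
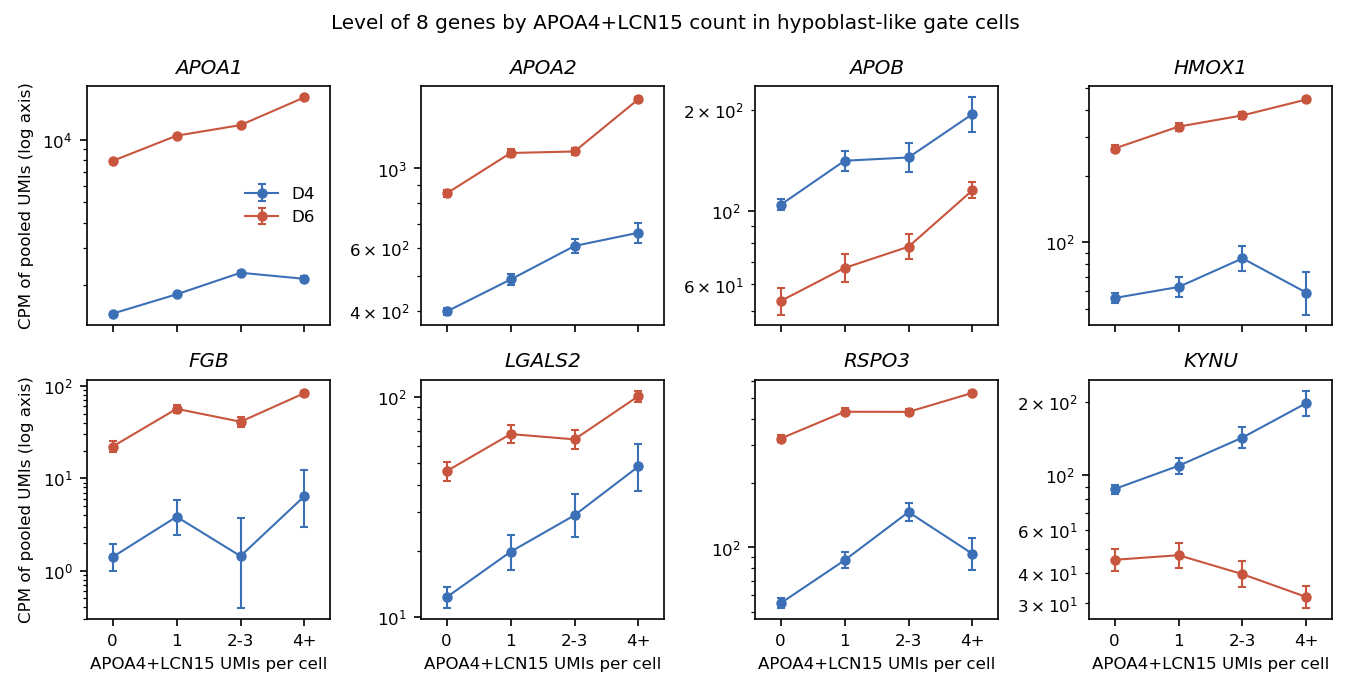
Level in CPM (log axis) of 8 genes in gate cells with 0, 1, 2 to 3 and 4 or more UMIs of APOA4 and LCN15 together at D4 and D6, with 95% Poisson intervals. APOA1 at D6 runs from 7918 to 16023 CPM, and KYNU from 88.0 to 197 CPM at D4 and from 45.2 to 31.9 CPM at D6.

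The cells differed among themselves by which of the pair they carried. At D6 the 186 APOA4-only cells and the 631 LCN15-only cells, with median depths of 11515 and 9809 UMIs, were compared over 36 named genes, of which 20 were higher in APOA4-only cells beyond the counting interval, 5 lower and 11 neither. Over all 8497 genes with a mean of at least 10 CPM in these 2 classes, 7.85% were higher and 10.5% lower in the same sense. The 36 genes had been named for their difference from comparison cells. APOA1 was at 18839 CPM (18661 to 19018) in APOA4-only cells, 16787 CPM in cells with both and 9613 CPM (9538 to 9687) in LCN15-only cells. HMOX1 was at 501, 487 and 296 CPM in the same order. FGB was at 91.0, 76.5 and 47.9 CPM, but 5 cells held 49.3% of the UMIs of the APOA4-only cells. Without the 5 highest cells of each class its levels were 47.4, 66.5 and 37.99 CPM. HP was at 132 (118 to 148), 82.6 and 33.3 CPM (29.0 to 37.97), with UMIs in 94 of the 186 APOA4-only cells and 112 of the 631 LCN15-only cells. AFP was at 53.6, 18.6 and 2.86 CPM, but 5 cells held 117 of the 122 UMIs of the APOA4-only cells, and without the 5 highest cells of each class its levels were 2.26, 6.48 and 0.759 CPM. GDF3, a TGFβ family ligand, and NODAL had log2 ratios of APOA4-only over LCN15-only cells of 1.24 (1.09 to 1.38) and 1.34 (1.07 to 1.61).

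Other genes were higher in the LCN15-only cells. KYNU at D6 was at 11.9 CPM (7.82 to 17.3) in APOA4-only cells, 21.9 CPM in cells with both and 60.9 CPM (55.1 to 67.1) in LCN15-only cells, with UMIs in 21 of 186, 128 of 795 and 186 of 631 cells. LINC00379 was at 14.9, 43.1 and 68.4 CPM in the same order, with UMIs in 20, 173 and 194 cells. IFI16, an interferon-inducible DNA sensor, had a log2 ratio of -1.73 (-2.72 to -0.87) between APOA4-only and LCN15-only cells. TTR was at 6.59 (3.69 to 10.9), 16.8 and 18.1 CPM (15.0 to 21.6), but 5 cells held 55.8% of the UMIs of the LCN15-only cells, and without the 5 highest cells of each class its levels were 2.26, 12.1 and 8.04 CPM. APOB was at 87.5, 104 and 102 CPM and differed between the outer 2 classes by -0.23, with an interval of -0.46 to 0.00. At D4, with 17 APOA4-only cells, 5 of 36 genes were higher in APOA4-only cells, 6 lower and 25 neither, beside 4.11% higher and 2.93% lower of 8323 genes. APOA1 was at 3805 (3560 to 4062), 3485 (3364 to 3609) and 1755 CPM (1708 to 1803), HMOX1 at 118, 138 and 54.7 CPM, KYNU at 42.3 (20.3 to 77.7), 95.6 and 190 CPM (174 to 206), and APOB at 97.2, 116 and 179 CPM. The levels of KYNU had the same order across the 3 classes on both days. The D4 intervals of APOA1 overlapped between APOA4-only cells and cells with both, and without the 5 highest cells of each class its levels were 2601, 2844 and 1602 CPM, which turns the order of the first 2 classes. Median depth at D4 was 13867 UMIs in APOA4-only cells and 11382 in LCN15-only cells, and its part in these ratios was not tested.

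**Figure D5:**
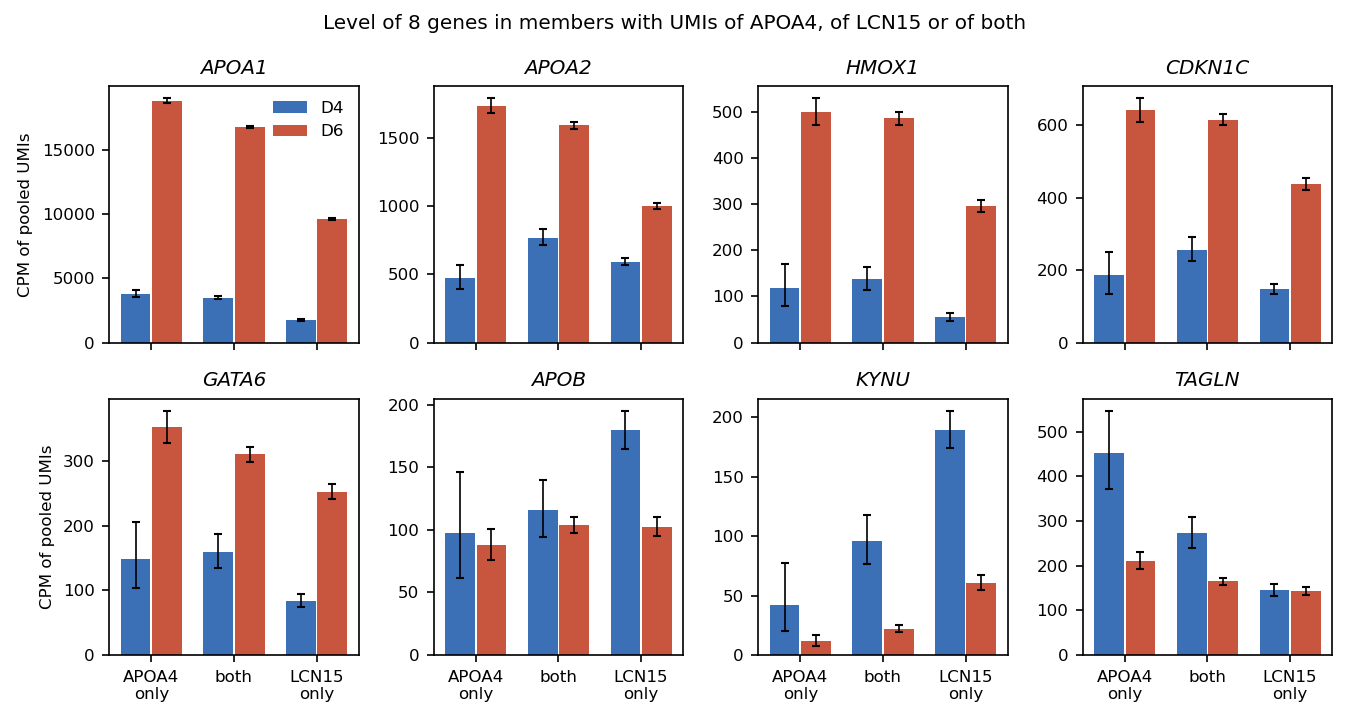
Level in CPM of 8 genes in APOA4/LCN15 cells with UMIs of APOA4 only, of both genes or of LCN15 only at D4 (17, 61 and 252 cells) and D6 (186, 795 and 631 cells); bars are levels and whiskers 95% Poisson intervals. APOA1 and HMOX1 are higher in cells with APOA4, and KYNU in cells with LCN15 only.

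Between the days, more genes of the APOA4/LCN15 cells passed the 2-fold mark than within either day. Of 8539 genes, 222 were at least 2-fold higher at D6, or 2.6%, and 112 at least 2-fold lower, or 1.31%. The comparison cells showed 155 higher and 51 lower of 8559 between the same libraries, so the values of both classes are given side by side. Mitochondrial transcripts also differed between the libraries. MT-CO3, a subunit of cytochrome c oxidase, went from 6801 to 2402 CPM in APOA4/LCN15 cells (-1.50) and from 7749 to 3534 CPM in comparison cells, and MT-ATP6 and MT-ND3 (-1.29 and -1.10) are also among the 112. The part of RNA quality in the day ratios was not tested. HP was at 2.63 CPM (1.31 to 4.70) at D4 and 70.9 CPM (67.1 to 74.9) at D6, a log2 ratio of 4.76, beside 5.03 in comparison cells. FGB had 4.45 beside 4.16. GDF3 was at 12.9 and 193 CPM (3.91, beside 4.48), GPX2, the gastrointestinal glutathione peroxidase, at 19.8 and 185 CPM (3.23, beside 3.70), and the transcription factor gene FOXQ1 at 25.3 and 222 CPM (3.13, beside 3.63). The peptide genes GRP and NTS had ratios of 3.10 and 2.81, beside 3.28 and 2.56, and PDGFRA, a growth factor receptor of primitive endoderm, 2.72 beside 3.17. APOA1 was 2.69 higher on the log2 scale at D6, beside 2.37, and HMOX1 2.46, beside 2.18. Of 7 apolipoproteins that passed, 4 were at least 2-fold higher at D6 and 6 had ratios above 0. In comparison cells 5 passed, of which 2 were at least 2-fold higher and 4 had ratios above 0. In APOA4/LCN15 cells APOC3 and APOM passed only through D6, and in comparison cells their means were below the filter. The counts therefore differ in part by the filter. In comparison cells APOC3 had 12 UMIs in 3085 cells at D4 and 69 in 987 at D6.

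Lower at D6 were LEFTY2, from 92.4 CPM (83.4 to 102) to 4.35 CPM (3.45 to 5.42), a log2 ratio of -4.41 beside -2.83 in comparison cells, and FABP7, a fatty acid-binding protein gene, from 73.0 to 5.49 CPM (-3.73 beside -2.33). TNC, the matrix protein tenascin C, had -2.85 beside -2.01, and KYNU -2.22 (-2.37 to -2.06) beside -0.96 (-1.11 to -0.82). KYNU was higher in LCN15-only cells, which were 76.4% of APOA4/LCN15 cells at D4 and 39.1% at D6. The part of this mix in the day ratios was not tested. GAL had -1.63 beside -1.31 and BMP7 -1.45 beside -1.31. PIMREG and PIF1, genes of mitosis and of genome maintenance, had -1.60 and -1.40, beside -0.44 and -0.68. Of 53 G2M genes, 16 were at least 2-fold lower at D6 in APOA4/LCN15 cells, with a median of -0.89, beside a median of -0.01 over all genes. In comparison cells 0 of 53 were at least 2-fold lower and 47 had ratios below 0, with a median of -0.30. The 2 sets of ratios share their libraries, and the difference between them was not tested.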

How the data were processed

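The authors deposited, for each of 2 libraries (hEEs of D4 and D6, cell line ESI017, 10x Chromium 3′), unnormalized UMI counts of 36601 genes per cell barcode. The file header names Cell Ranger 6.0.1, and the genome build per the labels was hg38. The 7 bisulfite libraries were not analysed here. Cells with 3430 to 27500 UMIs and at most 10% mitochondrial UMIs were kept. UMIs were summed over the cells of a class and scaled to CPM with exact Poisson intervals. A log2 ratio has an exact conditional binomial interval and a share a Clopper-Pearson interval, both at 95%. The intervals cover counting error only, since cells of 1 library are not replicates. Where a class had no UMI, 0.5 counts were added for the ratio. Genes were compared when the mean CPM of the 2 classes was at least 10. Called means a ratio of 2 or more.

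The cells and the 30 gene lists were chosen with earlier results of these data known, among them the lists of hypoblast and other marker genes. Genes were named by size: at each day the 12 with the highest and 8 with the lowest ratio, and 8 each way for D6 over D4, among genes with a mean CPM of at least 30 and an interval that excludes 0, without clone-named, mitochondrial and ribosomal protein genes. Marker genes and up to 4 of the most abundant genes of each list were added. Doublets were called with Scrublet in scanpy 1.11.5, kept, and left out in 1 alternative. Cell shares across depths were also taken after each cell was thinned to 3430 UMIs. Alternatives changed the summary over cells, depth, doublets, the APOA4 and LCN15 threshold, the cell filter, the scaling, the filter on low values, the POU5F1 limit and the comparison cells. Python 3.11.15, numpy 2.4.6, scipy 1.17.1 and pandas 2.3.3 were used, and the ratios and intervals were tested on simulated data. Promoter windows and gene positions came from RefSeq, GRCh38.p14. No promoter is given for APOA1, HMOX1 or APOB.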

Additional observations from a re-analysis of the deposited data

Results flagged for a closer look

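For 12 named or listed genes the log2 ratio of APOA4/LCN15 cells over comparison cells lay on opposite sides of 0 at D4 and D6, with a counting interval that excludes 0 on each day. The difference between the days was not tested, since each day has 1 library. The D4 and D6 ratios were 0.88 and -0.27 for RGS5, 0.73 and -0.42 for PIMREG, and 0.48 and -0.25 for PIF1. Also above 0 at D4 and below 0 at D6 were HMGB2 (0.36 and -0.09), TYMS (0.25 and -0.28), HELLS (0.17 and -0.32), NASP (0.11 and -0.11) and JPT1 (0.08 and -0.11). In the other direction were FGF17 (-1.01 and 0.08), GATA6 (-0.25 and 0.07), MSX2 (-0.24 and 0.31) and KRT18 (-0.03 and 0.03). For JPT1, KRT18 and MSX2 the sign changed under an alternative on at least 1 of the days.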

How the results depend on the processing

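No paired analysis was possible because each day had 1 library, and for the same reason no replicate could be left out. The share of kept cells was 9.11% at D4 and 21.6% at D6 with at least 1 UMI of APOA4 and LCN15, 1.202% and 9.94% with at least 4, 0.754% and 5.87% when membership was read from thinned counts, and 3.17% and 14.2% without the cell filter. The D6 share was higher under each of these. Against comparison cells at D4, genes at least 2-fold higher and lower numbered 32 and 66 with cells thinned, 32 and 63 with at least 4 UMIs, 174 and 286 with a mean CPM of at least 1, and 6 and 8 with the other limits on comparison cells. At D6, 31 genes were higher with at least 4 UMIs, 120 higher and 178 lower with a mean CPM of at least 1, and 3 lower with the other limits. For D6 over D4, 774 were higher and 508 lower with a mean CPM of at least 1, and 174 lower with cells thinned. The filter and the thinning let in genes or levels resting on fewer UMIs.

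Of single log2 ratios whose interval excludes 0, these changed sign. With cells thinned, BNIP3 (-0.027) and JPT1 (-0.051) did at D4, and FST (-0.0096), LINC00379 (-0.11) and NPC2 (-0.031) at D6. With the other limits on comparison cells, FABP5 (1.42e-05) and KRT18 (0.039) did at D4, and BMP2 (0.0091), JPT1 (0.0032) and LINC00379 (-0.085) at D6. With at least 4 UMIs, FOXQ1 (-0.39), MSX2 (0.0039) and SOX17 (-0.048) did at D4, and TAGLN for D6 over D4 (0.22). The cause was not tested. Of the other values for named genes, 3689 moved by less than the counting interval and 395 by more. The values of the 17 APOA4-only cells of D4 and of genes below 10 CPM rest on few UMIs. Doublets are limited to those that Scrublet calls, which were few among these cells.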

Other observations

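Of genes outside the lists and the naming rule, chosen after their values were seen, a few that were at least 2-fold higher in APOA4/LCN15 cells are given as values. At D6, CCL25, a chemokine of thymus and small intestine, was at 19.1 against 6.67 CPM (log2 ratio 1.52) and PRAP1 at 27.2 against 11.0 CPM (1.31). AKR1D1, an enzyme of bile acid synthesis, was at 14.8 against 6.41 CPM (1.21), and DPEP1, a membrane dipeptidase, at 20.0 against 9.26 CPM (1.11). At D4, TPPP3 was at 23.4 against 8.33 CPM (1.49). CCL25, AKR1D1, DPEP1 and TPPP3 passed the filter only through the APOA4/LCN15 cells. All values in this paragraph are from the contrast by which the cells were chosen, in 1 library per day.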
